A study of Homo sapiens with 6 samples.

Results

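The genes described here are 10 markers by which glioma stem cells are recognised: NES, SOX2, PROM1, CD44, FUT4, MSI1, OLIG2, BMI1, MYC and KLF4. They were taken by name from the comparison table and by Entrez gene ID from the library tables, and are 10 of the 27259 genes listed. Total RNA was sequenced from U87MG, an established human glioblastoma line grown in medium with fetal bovine serum. The 3 U87MG-control libraries came from cells given a control lentivirus, and the 3 U87MG-LMO2 libraries from cells given a lentivirus that carries LMO2, a LIM-domain bridging factor of haematopoietic stem cells. Both infections lasted 24 h, so the controls carried a virus too, and the vectors that the study's methods name for LMO2 carry a CMV promoter. The labels do not say whether the libraries came from separate cultures, and p-values therefore measure only the spread between these libraries, which may be technical.

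Glioma stem cells are tumour cells that renew themselves, grow as spheres in serum-free medium and start tumours after transplantation. They share surface molecules (CD44, the PROM1 product CD133, and the SSEA-1 epitope that FUT4 can make) with neural progenitors. Shared too are cytoplasmic proteins (nestin, Musashi-1) and transcription and chromatin factors (SOX2, OLIG2, MYC, KLF4, BMI1). Lines kept in serum, such as U87MG, are known for losing many neural progenitor traits and for a mesenchymal appearance. No one of these genes is confined to stem cells, and in bulk RNA fewer cells of a type and less RNA per cell cannot be told apart. The question addressed here was which of the markers U87MG expressed, and whether their levels differed after LMO2 was added.

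LMO2 itself was detected at 7, 11 and 5 counts in U87MG-control and at 5459, 4503 and 14570 counts in U87MG-LMO2, so each library matched its label, with U87MG-LMO2 replicate 3 the highest. Total expected counts were 11428432 to 13537284 in the control group and 14630627 to 17892955 in the LMO2 group, whose libraries were all deeper than any control. Levels between genes are given as FPKM (fragments per kilobase of transcript, scaled to library depth), and differences between groups as normalised read counts (CPM, counts scaled to a common library size with TMM factors). A gene was called when its adjusted p from the quasi-likelihood test of edgeR was under 0.05. Of the 16092 genes tested, 1203 were called, which is 7.48%. The file of 1 library, U87MG-LMO2 replicate 3, held 3 damaged lines that could not be read. In all, 134 genes did not match the deposited U87MG-LMO2 mean and were left out of tests, of which 0 were markers.

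The promoters of 3 markers are shown, because they belong to the member with the highest level (CD44), to a member near the detection limit (SOX2) and to the intermediate filament gene the study followed (NES). The sequences are from RefSeq on GRCh38.p14, run 5′ to 3′ on the gene's strand from 250 bases before to 50 bases after the transcription start, and have CG dinucleotides in capitals. The CD44 window is chr11:35138921-35139220 on the + strand, the SOX2 window chr3:181711675-181711974 on the + strand, and the NES window chr1:156677358-156677657 on the − strand.
CD44: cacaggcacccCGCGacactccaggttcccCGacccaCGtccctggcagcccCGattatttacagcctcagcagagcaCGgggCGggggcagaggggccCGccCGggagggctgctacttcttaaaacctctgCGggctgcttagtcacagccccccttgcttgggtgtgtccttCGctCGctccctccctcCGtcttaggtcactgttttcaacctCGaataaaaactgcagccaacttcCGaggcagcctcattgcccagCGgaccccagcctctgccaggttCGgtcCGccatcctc
SOX2: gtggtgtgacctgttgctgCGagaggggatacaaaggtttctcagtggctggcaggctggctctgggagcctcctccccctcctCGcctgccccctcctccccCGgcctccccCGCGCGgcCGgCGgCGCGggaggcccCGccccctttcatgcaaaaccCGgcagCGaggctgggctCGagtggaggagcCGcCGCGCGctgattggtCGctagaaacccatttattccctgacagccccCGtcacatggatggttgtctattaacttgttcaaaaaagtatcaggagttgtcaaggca
NES: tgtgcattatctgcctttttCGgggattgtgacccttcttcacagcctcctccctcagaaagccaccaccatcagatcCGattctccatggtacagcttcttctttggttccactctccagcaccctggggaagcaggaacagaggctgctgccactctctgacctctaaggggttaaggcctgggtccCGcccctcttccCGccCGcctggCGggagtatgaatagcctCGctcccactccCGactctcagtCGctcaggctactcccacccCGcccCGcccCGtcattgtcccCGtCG

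CD44 and SOX2 had the same GC content in this window, 63.3%, and similar numbers of CG dinucleotides, 18 and 20, beside mean levels of 508.2 and 0.0433 FPKM. NES had 14 CG dinucleotides, equal to the median over 35116 RefSeq promoters. Promoter windows were held for 7 of the 10 markers, NES, SOX2, PROM1, CD44, FUT4, BMI1 and KLF4, in 11 windows in all. The palindrome TTCNNNGAA, the letters of a STAT-type element, occurred in 0 of the 11 windows and in 7.66% of all promoters of the same length. The E-box CANNTG, also a palindrome and therefore read on both strands at once, occurred in 7 of the 11 windows, in 5 of the 7 genes, and in 68.7% of all promoters. These matches describe letters in a 300 base window and say nothing about binding.

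In U87MG the markers covered a wide range of levels. CD44, MYC, BMI1, NES and KLF4, 5 of the 10, reached at least 1 FPKM in every library, and FUT4 lay around that value. OLIG2 was detected at few reads in each library. PROM1, SOX2 and MSI1 stood at or close to the detection limit, which was set at 3 counts in a library. By mean FPKM over the 6 libraries the order was CD44 with 508.2, MYC with 45.8, BMI1 with 10.1, NES with 7.70, KLF4 with 2.59, FUT4 with 1.05, OLIG2 with 0.305, PROM1 with 0.0950, SOX2 with 0.0433 and MSI1 with 0.0133. CD44 ranked 108th by this measure among 27125 genes. The ranges over libraries of BMI1 and NES overlapped, as did those of the neighbours OLIG2 and PROM1, PROM1 and SOX2, and SOX2 and MSI1. All other neighbours in the order had separate ranges.

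**Figure D1:**
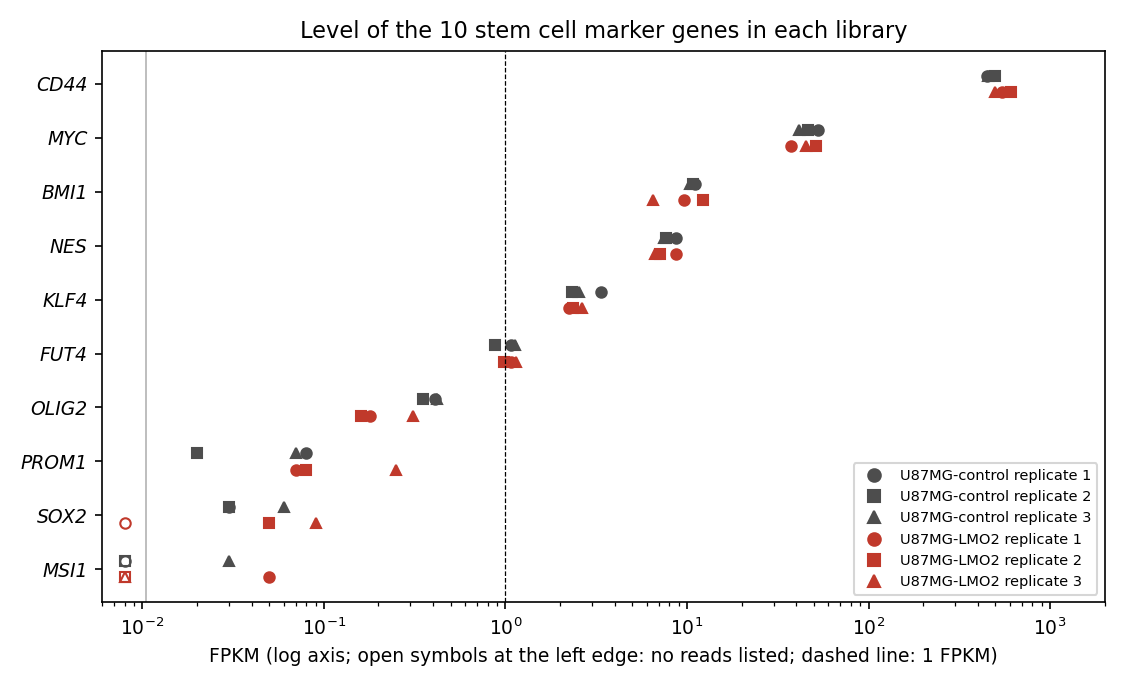
Level of each marker in each library in FPKM on a log axis, with U87MG-control in grey and U87MG-LMO2 in red and a symbol for each replicate. Open symbols at the left edge are libraries with no reads of the gene, and the dashed line is 1 FPKM. CD44 lies between 451 and 606 FPKM, whereas SOX2 and MSI1 stay under 0.1 FPKM in all 6 libraries.

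None of the markers was called as changed in U87MG-LMO2 with all libraries, and CD44 alone was called when U87MG-LMO2 replicate 3 was left out. In all, 7 markers passed the filter on low counts and were tested, and edgeR called 0 of them, beside 7.48% of all genes tested. The number at an unadjusted p under 0.05 in edgeR with all libraries was also 0, beside 25.7% of all genes. DESeq2 called 0 at the adjusted threshold, but it gave OLIG2 no adjusted p. The log2 fold changes, here always U87MG-LMO2 over U87MG-control, were above 0 for 2 markers and below 0 for 5. They ran from -0.75 to 0.20 with a median of -0.05, beside a median of -0.01 over all genes tested. The intervals given below show how large a difference each test could have missed.

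**Figure D2:**
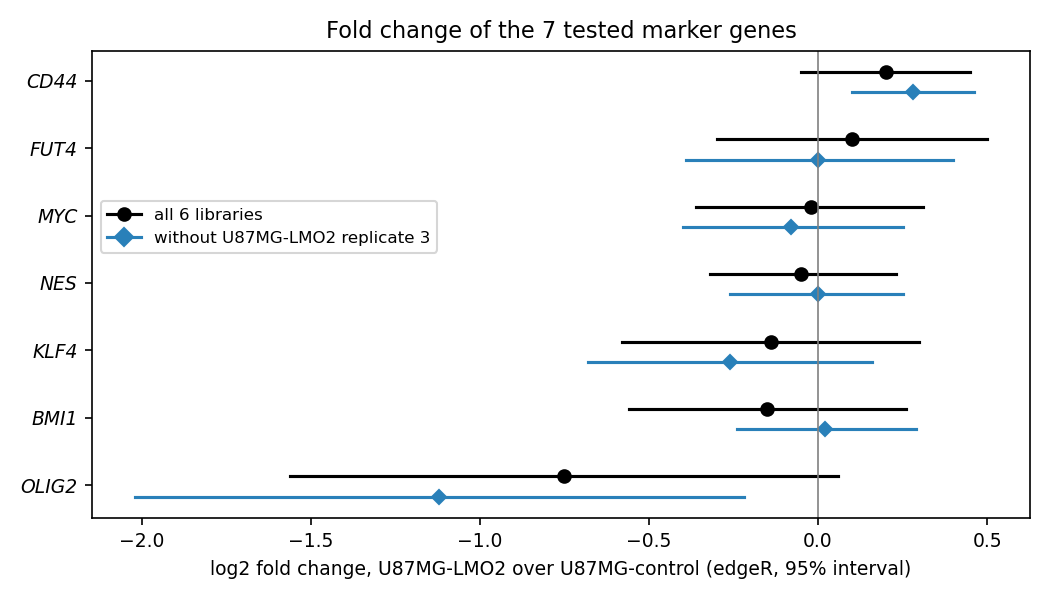
Log2 fold change (U87MG-LMO2 over U87MG-control) with its 95% interval from edgeR for the 7 tested markers. Black circles are the fit to all 6 libraries and blue diamonds the fit without U87MG-LMO2 replicate 3. With all libraries each interval includes 0, and without that replicate the intervals of CD44 (0.10 to 0.46) and OLIG2 (-2.02 to -0.22) do not.

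Among the surface markers, CD44, the receptor for the matrix polysaccharide hyaluronan, was the most abundant. Its normalised read counts were 1152, 1197 and 1121 CPM in U87MG-control and 1301, 1502 and 1182 CPM in U87MG-LMO2. Replicates 1 and 2 of U87MG-LMO2 were above all controls, whereas replicate 3 lay within the control range, so the groups overlapped. The log2 fold change was 0.20 ± 0.11 (SE, n = 3 per group; 95% interval -0.05 to 0.45; edgeR adjusted p = 0.292), which excludes neither no difference nor a 1.37-fold higher level. Without U87MG-LMO2 replicate 3 it was 0.28 ± 0.08 with an adjusted p of 0.0462 by edgeR, and CD44 was then called as higher. In that fit 14.7% of 16392 genes were called and 7.97% were called as higher.

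CD44 is spliced into forms of different length, and its measure depended on the unit. In FPKM the control libraries had 451, 496 and 456 and the U87MG-LMO2 libraries 541, 606 and 499.45. The groups did not overlap on this scale, because the lowest U87MG-LMO2 value was just above the highest control value of 495.8. In CPM 34.1% of all genes tested had groups that did not overlap, and the share in FPKM was not counted. CPM also carries a TMM factor, which was 0.929 in U87MG-LMO2 replicate 3 and 1.008 to 1.021 in the other libraries. What set the 2 scales apart was not tested. The abundance-weighted transcript length of CD44 that enters FPKM was 2184 bases in U87MG-LMO2 replicate 3 and 2431 to 2563 bases in the other libraries. That replicate had the shortest length for 22.5% of the 11055 genes whose length varied between libraries, and U87MG-control replicate 1 for 22.6%.

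PROM1 encodes CD133, a pentaspan membrane protein and the antigen most used to sort glioma stem cells. It had 4, 1 and 4 counts in U87MG-control and 5, 4 and 17 counts in U87MG-LMO2. Only U87MG-LMO2 replicate 3 stood apart, and the groups overlapped. That library had the most LMO2, the greatest depth and the damaged lines, and what raised its PROM1 count was not tested. PROM1 was not tested because of these low counts. Summed over libraries it had 0.237 CPM (without TMM scaling) in U87MG-control (exact Poisson 95% interval 0.108 to 0.449) and 0.534 in U87MG-LMO2 (0.349 to 0.783). Without U87MG-LMO2 replicate 3 the sum was 0.293 (0.134 to 0.555), within the control interval. These intervals cover counting error only. When no filter was applied, the log2 fold change was 1.17 (95% interval -0.30 to 2.64; edgeR adjusted p = 0.420).

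FUT4 encodes a fucosyltransferase that can build the SSEA-1 (CD15) epitope, so its RNA does not measure the epitope itself. Normalised counts were 6.59, 5.36 and 6.86 CPM in U87MG-control and 6.54, 5.98 and 7.55 CPM in U87MG-LMO2, with the groups interleaved. For FUT4 the log2 fold change was 0.10 ± 0.18 (SE; 95% interval -0.30 to 0.50; edgeR adjusted p = 0.766). Its expected counts were not whole in any of the 6 libraries, which happens when reads that fit several genes are divided among them.

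**Figure D3:**
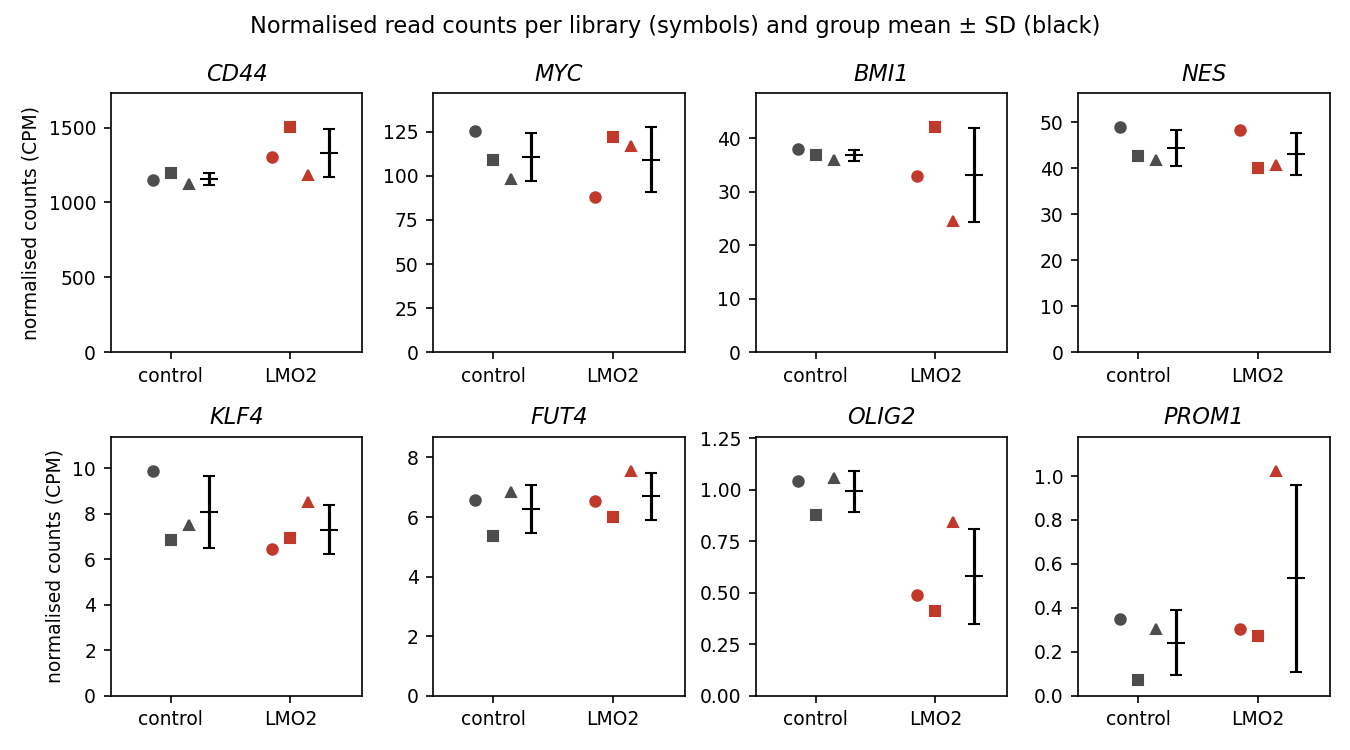
Normalised read counts (CPM) of 8 markers in each library, with each axis starting at 0, U87MG-control in grey, U87MG-LMO2 in red, and the mean ± SD of the 3 libraries of a group in black. Circles, squares and triangles are replicates 1, 2 and 3. OLIG2 is the panel in which the groups do not overlap (0.876 against 0.844 CPM at the nearest libraries), and PROM1 is raised in replicate 3 of U87MG-LMO2 with the other 2 replicates near the controls.

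NES encodes nestin, an intermediate filament protein of neural progenitors, and was expressed in all libraries. Its normalised counts were 48.9, 42.7 and 41.8 CPM in U87MG-control and 48.3, 40.2 and 40.6 CPM in U87MG-LMO2. Replicate 1 was the highest of each group and the groups overlapped nearly completely. NES had a log2 fold change of -0.05 ± 0.12 (SE; 95% interval -0.32 to 0.23; edgeR adjusted p = 0.838), so the fold lay between 0.803 and 1.17. By PCR the study reported higher NES and MYC in U87MG-LMO2 cells, reduced by ID1 depletion. That measure was scaled to GAPDH, in cells that also carried a control or ID1-targeting interfering RNA. Why it differs from the counts given here was not tested. By the root mean square difference of centred log2 CPM over the 6 libraries, the tested genes with the pattern most like NES were LIMD2 (0.0423), TRIP10 (0.0446) and LOC105372066 (0.0457), with a median of 0.253 over 16091 genes.

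MSI1 encodes Musashi-1, an RNA-binding protein of neural progenitors. It had 1 count in U87MG-control replicate 3, 2 counts in U87MG-LMO2 replicate 1 and 0 counts in the other 4 libraries. A library with 0 counts allows up to 3 counts, so no difference in MSI1 was detectable at this depth. Over all libraries the level was 0.0346 CPM (without TMM scaling; exact Poisson 95% interval 0.00713 to 0.101).

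SOX2, the transcription factor that maintains neural stem cells and one of the factors used for reprogramming, was nearly absent from the reads. It had 1, 1 and 2 counts in U87MG-control and 0, 2 and 4 counts in U87MG-LMO2. The groups overlapped, and SOX2 was not tested. Summed over libraries, the level of SOX2 was 0.105 CPM in U87MG-control (0.0286 to 0.269) and 0.123 in U87MG-LMO2 (0.0453 to 0.268). The noncoding gene SOX2-OT, in which SOX2 lies, had at most 3.97 counts in a library.

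OLIG2, a helix-loop-helix factor of oligodendrocyte progenitors and proneural glioma cells, was the marker whose groups did not overlap. Its counts were 12, 12 and 14 in U87MG-control and 8, 6 and 14 in U87MG-LMO2, or 1.04, 0.876 and 1.06 CPM against 0.488, 0.409 and 0.844 CPM. The gap was narrow, with U87MG-LMO2 replicate 3 just under control replicate 2, and 34.1% of all genes tested had groups that did not overlap in CPM. The log2 fold change was -0.75 ± 0.36 (SE; 95% interval -1.56 to 0.06; edgeR adjusted p = 0.227), and over the alternatives with an adjusted p the latter ranged from 0.0920 to 0.450. OLIG2 reached the filter value of 0.713 CPM in 3 control libraries and in 1 U87MG-LMO2 library, so it entered the test mainly through the controls.

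MYC, the growth-promoting helix-loop-helix factor, was the most abundant transcription factor of the set. Its normalised counts were 125, 109 and 98.4 CPM in U87MG-control and 88.1, 122 and 117 CPM in U87MG-LMO2. The highest library was a control and the lowest a U87MG-LMO2 library, with the others interleaved. For MYC the log2 fold change was -0.02 ± 0.15 (SE; 95% interval -0.36 to 0.31; edgeR adjusted p = 0.934), a fold between 0.780 and 1.24. The rise of MYC that the study reported by PCR was thus not seen in these counts. The genes whose pattern over the 6 libraries was most like that of MYC were MAFF (root mean square difference 0.0660), ZNF236 (0.0663) and EBPL (0.0800), with a median of 0.294 over 16091 genes.

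KLF4 is a zinc finger factor that is used with SOX2 and MYC in reprogramming. Its normalised counts were 9.89, 6.87 and 7.49 CPM in U87MG-control and 6.47, 6.95 and 8.50 CPM in U87MG-LMO2. Control replicate 1 was the highest, and the groups overlapped. KLF4 had a log2 fold change of -0.14 ± 0.19 (SE; 95% interval -0.58 to 0.30; edgeR adjusted p = 0.683).

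BMI1 is a subunit of polycomb repressive complex 1 and supports self-renewal by silencing cell cycle inhibitors. It had 37.9, 36.8 and 35.9 CPM in U87MG-control and 33.0, 42.1 and 24.5 CPM in U87MG-LMO2. The controls were close together, and the U87MG-LMO2 libraries lay on both sides of them. The log2 fold change was -0.15 ± 0.18 (SE; 95% interval -0.56 to 0.26; edgeR adjusted p = 0.631), and it was 0.02 without U87MG-LMO2 replicate 3 (adjusted p = 0.913) and -0.36 without U87MG-LMO2 replicate 2 (adjusted p = 0.167). BMI1 shares exons with the readthrough gene COMMD3-BMI1, to which 0, 36.6 and 39.8 counts were assigned in U87MG-control and 34.5, 0 and 19.9 counts in U87MG-LMO2. The libraries with 0 readthrough counts were those with the most BMI1 in their group. With the counts of both genes added, an alternative chosen after seeing the data, the log2 fold change was -0.18 (edgeR adjusted p = 0.538).

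The genes around the markers were read from 16 lists of 217 genes that are not markers themselves. Of these, 155 were tested, 12 were called as higher (7.74%) and 7 as lower (4.52%), beside 4.72% and 2.75% of all genes tested. The median log2 fold change of the list genes was 0.05, beside -0.01 over all genes. Because the lists were chosen with earlier results of these data known, their larger shares may come from that choice and show no excess. Calls that were kept in every alternative were those of ADGRG1, ITGA6, CEMIP, HAS1, SPP1 and COL1A1, 6 of the 18 called list genes that were named by rule.

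The list of hyaluronan genes and CD44 partners held the largest rises, although CD44 itself was not called. Of its 18 tested genes, 3 rose, 1 fell and 14 did not pass the test, with a median log2 fold change of 0.11. Over all genes tested 4.72% were called as higher and 2.75% as lower. HAS1, which makes hyaluronan, had 2.43, 8.91 and 9.54 CPM in U87MG-control and 53.1, 73.4 and 61.3 CPM in U87MG-LMO2 (log2 fold change 3.15 ± 0.38 SE, edgeR adjusted p = 0.00453). CEMIP, which is needed to break hyaluronan down, had 7.46, 25.6 and 23.3 CPM against 236, 182 and 122 CPM (3.25 ± 0.42, edgeR adjusted p = 0.00576). Both genes were far above all controls in each U87MG-LMO2 library, and U87MG-control replicate 1 had the lowest value of both. MMP14, a membrane protease that cleaves CD44, rose by 0.73 ± 0.11 on the log2 scale (edgeR adjusted p = 0.0116), a call lost without U87MG-control replicate 2 or replicate 3. SPP1, which encodes the CD44 ligand osteopontin, fell from 380, 418 and 417 CPM to 180, 149 and 197 CPM (-1.21 ± 0.12, edgeR adjusted p = 0.00293). MSN, a linker of CD44 to actin and the most abundant gene of the list, had a log2 fold change of -0.09 (edgeR adjusted p = 0.636).

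Of 15 tested genes that are other surface and cytoplasmic stem cell markers, 1 rose, 2 fell and 12 did not pass the test, beside 4.72% of all genes called as higher and 2.75% as lower. Their median log2 fold change was again 0.05. ADGRG1, an adhesion receptor of neural progenitors, had 137, 211 and 207 CPM in U87MG-control and 525, 431 and 582 CPM in U87MG-LMO2 (1.47 ± 0.18, edgeR adjusted p = 0.00500). ITGA6, the laminin receptor subunit used to enrich glioma stem cells, fell from 21.2, 20.6 and 18.8 CPM to 9.39, 8.11 and 7.83 CPM (-1.25 ± 0.13, edgeR adjusted p = 0.00344). The groups of either gene were well apart. ALDH1A1, a retinaldehyde dehydrogenase, was lower by a log2 fold change of -1.09 ± 0.28 (edgeR adjusted p = 0.0482), a call lost in 8 of 13 alternatives. ID1, which the study picked on these samples by its own fold and probability thresholds and by literature mining, had a log2 fold change of 1.12 ± 0.48 (edgeR adjusted p = 0.186). Its groups did not overlap, with 22.9 to 122.9 FPKM in U87MG-control and 132.5 to 209.0 FPKM in U87MG-LMO2. In CPM 34.1% of all genes tested had such groups. The study also followed ID1 with a promoter reporter, immunoblots, PCR in glioma stem cells, and knockdown in sphere and sprouting assays. ALDH1A3 had a log2 fold change of 0.59 ± 0.30 (edgeR adjusted p = 0.248).

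Among transcription factor families, SOX9, a glial and progenitor factor, fell from 19.7, 16.1 and 17.6 CPM to 5.55, 5.11 and 8.62 CPM (-1.47 ± 0.21, edgeR adjusted p = 0.00918). It was the 1 gene called among 6 tested SOX genes, beside 7.48% of all genes tested. The SOX9 call was lost without U87MG-control replicate 1 (edgeR adjusted p = 0.0558). Of 13 tested KLF genes, 2 rose and 1 fell, beside 4.72% of all genes called as higher and 2.75% as lower. KLF10 rose by 0.66 ± 0.13 (edgeR adjusted p = 0.0261), KLF17 by 1.62 ± 0.28 at a control level under 1 CPM (adjusted p = 0.0152), and KLF3 had -0.46 ± 0.12 (adjusted p = 0.0471). Each of these 3 calls was lost when any single control library or U87MG-LMO2 replicate 1 was left out.

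Of the genes that work with MYC and BMI1, single members were called, beside 7.48% of all genes tested. In the MYC network, 1 of 11 tested genes was called: MGA, a MAX partner that opposes MYC, fell by 0.77 on the log2 scale (edgeR adjusted p = 0.0187), whereas MAX had -0.24 ± 0.09 (adjusted p = 0.124). Of 25 tested MYC target genes, SRM, the spermidine synthase, rose by 0.61 ± 0.13 (edgeR adjusted p = 0.0330) and the others did not pass. LDHA, the most abundant of them, had -0.38 ± 0.12 (adjusted p = 0.0842), and the median of the list was -0.12. Of 18 tested polycomb partners of BMI1, CBX7 rose by 0.76 ± 0.13 (edgeR adjusted p = 0.0168) and PHC1 had -0.42 ± 0.10 (adjusted p = 0.0420), which are a chromodomain and a polyhomeotic subunit of the same complex. The MGA, SRM, CBX7 and PHC1 calls were each lost in 4 to 6 of 13 alternatives.

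Few of the transcription factors described for tumour-propagating glioma cells passed the filter on low counts, and 4 were tested. HES6 and VAX2 were the highest, with 3.23 to 3.77 and 3.11 to 3.64 FPKM in U87MG-control. edgeR called 0 of the 4 tested, beside 7.48% of all genes tested. POU5F1 and NANOG, the most abundant of 8 tested pluripotency factors, had log2 fold changes of 0.14 ± 0.13 and 0.53 ± 0.20 (edgeR adjusted p = 0.523 and 0.133), and both have processed copies elsewhere in the genome that may share their reads. Of 9 tested fucosyltransferase genes outside FUT4 and 6 tested intermediate filament genes outside NES, 0 were called. At a share of 7.48% over all genes, lists this short can hold 0 calls without differing from other genes.

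**Figure D4:**
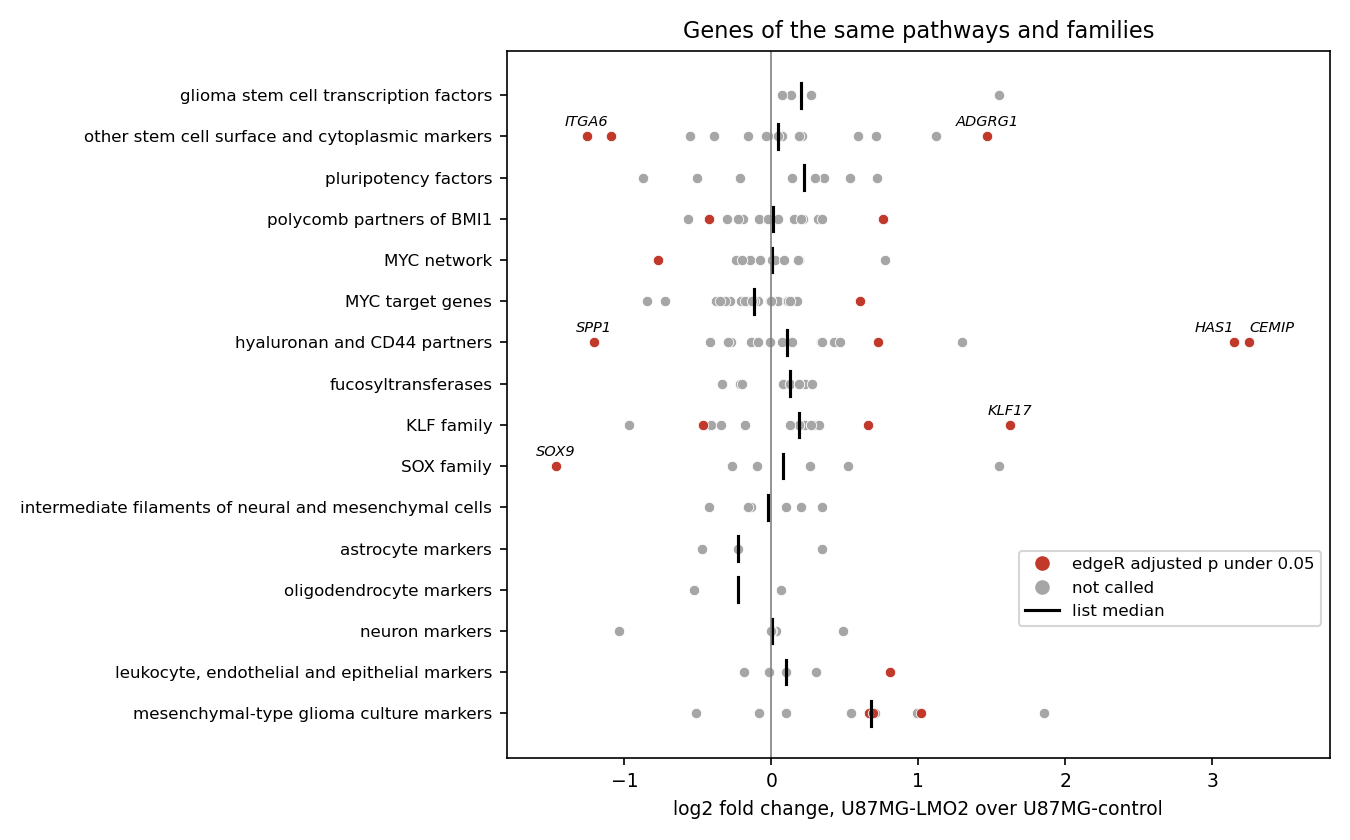
Log2 fold change (U87MG-LMO2 over U87MG-control) of the tested genes of the 16 lists, the 10 markers left out. Each point is a gene, red where edgeR's adjusted p was under 0.05, and the black bar is the median of the list, with names printed for called genes beyond 1.1 in either direction. HAS1 and CEMIP stand far to the right. The astrocyte, oligodendrocyte and neuron lists, with 3, 2 and 5 tested genes, hold no called gene, beside 7.48% of all genes tested.

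The line was also compared with markers of the cells a brain tumour can hold. VIM, the filament gene of mesenchymal-type cultures, had a mean of 5166 FPKM in U87MG-control and 5366 FPKM in U87MG-LMO2. Of the 7 astrocyte markers, S100B and AQP4 had at most 1 count in a library and GFAP had 5 to 13 counts in the 5 libraries that give it, whereas GJA1 had 1017 to 1430, SLC1A3 326 to 564 and SLC1A2 29.0 to 59.5 counts. The summed level of the astrocyte list was 32.2 to 50.0 FPKM in U87MG-control and 28.8 to 32.7 FPKM in U87MG-LMO2, nearly all from GJA1 and SLC1A3. Of 10 tested mesenchymal-type markers 3 were called as higher and 0 as lower, beside 4.72% and 2.75% of all genes tested. Among the 3 were the chains of type I collagen, COL1A1 with 1.02 ± 0.10 (edgeR adjusted p = 0.00238) and COL1A2 with 0.69 ± 0.12 (adjusted p = 0.0144). The COL1A2 call was lost in 4 of 13 alternatives. ANXA1, the most abundant of the list after VIM, went the other way with -0.51 ± 0.21 (edgeR adjusted p = 0.167). The median log2 fold change over the 10 genes was 0.68, and 8 of them were above 0.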

How the data were processed

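Total RNA of 6 U87MG libraries was sequenced by a service company, and each library was placed in its group by its title. Per the submitters' processing notes, Bowtie2 and BWA and the build GRCh38.p12 were used; the counting program is not given in the sources used here. For each gene the authors deposited an expected count, an estimate of its reads with no normalization, and an FPKM value, which is scaled to transcript length and library depth. The comparison table the authors deposited also holds their fold changes and probabilities, which were not used. Genes with no line were taken as 0 counts. Gene symbols came from the comparison table and RefSeq (89.6% of IDs matched). In total 134 genes, with 0.35% of control counts, did not match the deposited U87MG-LMO2 mean within 0.001 FPKM and were left out of tests. The data of U87MG-LMO2 replicate 3 had 3 unreadable lines, and whether these account for all 134 genes was not tested.

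Expected counts were rounded and tested with edgeR 4.0.16 in R 4.3.3 (filterByExpr, TMM, glmQLFit and glmQLFTest, 2-sided, no block), with Benjamini-Hochberg adjustment over all 16092 genes that passed the filter. The script was tested on simulated data. Depth limits low genes: 0 counts allow up to 3 counts, and intervals on counts leave out PCR duplication, which was not marked by molecular identifiers, so they cover counting error only. Alternatives were fits with each library left out, a block for the replicate number, DESeq2 1.42.0, limma 3.58.1 on log2(FPKM + 1) or log2(FPKM + 0.1), normalization by the upper quartile, a minimum of 10 counts in every library, and no filter. Genes to be named by rule were LMO2, the 10 markers, the called genes of each list (at most 2 higher and 2 lower), the 2 genes of each list with the highest mean FPKM, and the 3 genes most like NES and MYC. Of the genes with the highest FPKM, NPM1, MXD3, PHC2, PCGF2, FUT8, POFUT1, KLF16, SOX12, SOX13 and LMNA are not described above. They were not called by edgeR, and their log2 fold changes lay between -0.42 (PHC2) and 0.28 (POFUT1). GFAP, S100B, AQP4, SLC1A2, SOX10, PTPRC, CD3E, CDH5, KDR, VWF, CDH1, STMN2, RBFOX3, SYP, DCX, MAP2, SOX2-OT and COMMD3-BMI1 were named after their values were seen. The markers and lists were chosen with earlier results of these data known. Promoter sequences are from RefSeq (GRCh38.p14).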

Additional observations from a re-analysis of the deposited data

How the results depend on the processing

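The counts of called genes depended strongly on single libraries. When each library was left out in turn, edgeR called 102 to 1307 genes as higher and 42 to 1102 as lower (760 and 443 with all libraries), 4 to 19 list genes as higher, 2 to 16 as lower, and 0 to 1 of the markers; the lowest counts of all genes were without U87MG-control replicate 3 and the highest without U87MG-LMO2 replicate 3. The marker called in that last fit was CD44, with a log2 fold change of 0.277. An arm left with fewer libraries was assumed to vary like the other. DESeq2 called 691 genes as lower and 13 list genes as lower. In the fit with a replicate block, 387 genes were called as higher, 189 as lower and 4 list genes as lower; same-numbered libraries had correlations of -0.12, 0 and -0.04 of their deviations, so the numbers were not taken to pair the libraries. Of 91 alternative log2 fold changes of markers, including the fit with COMMD3-BMI1 counts added to BMI1, 83 kept their direction and call. OLIG2 was counted among them in DESeq2, where it had no adjusted p. Directions near 0 turned in 7 fits: NES to 0.026 without U87MG-control replicate 1 and to 0.0 without U87MG-LMO2 replicate 2, FUT4 to -0.006 without U87MG-control replicate 2, BMI1 to 0.025 without U87MG-LMO2 replicate 3, MYC to 0.073 without U87MG-control replicate 1 and to 0.116 without U87MG-LMO2 replicate 1, and KLF4 to 0.025 without U87MG-control replicate 1. Leaving out single libraries moved NES between -0.13 and 0.03, FUT4 between -0.01 and 0.17, BMI1 between -0.36 and 0.02, MYC between -0.11 and 0.12, and KLF4 between -0.26 and 0.03. The cause was not tested. LMO2 could not be fitted with at least 10 counts in every library, since the controls fell under that filter. PROM1, SOX2 and MSI1 had too few reads for a difference to be shown at this depth.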

Other observations

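Markers of other cells than astrocytes differed widely in level. The neuron list summed to 198 to 238 FPKM in U87MG-control and 251 to 367 FPKM in U87MG-LMO2, mostly from TUBB3. Of its 7 genes, STMN2 had 0 counts in all libraries, RBFOX3 had 1 to 8, SYP 5 to 15 and DCX 7.55 to 27.67 counts. Among its 5 tested genes, 3 had log2 fold changes above 0, and the median was 0.0. MAP2 had -1.03 (edgeR adjusted p = 0.0704). For the oligodendrocyte list the sums were 31.8 to 33.1 and 29.1 to 34.7 FPKM, with CNP at means of 28.6 and 29.4 FPKM. CNP and MOG, of 6 oligodendrocyte markers, were the 2 tested, with log2 fold changes of 0.07 ± 0.09 and -0.53 ± 0.27 (SE, n = 3 per group; edgeR adjusted p = 0.669 and 0.254), while SOX10 had at most 2 counts in a library. TUBB3, a tubulin of neurons, had 181 to 220 FPKM in U87MG-control and 236 to 349.7 FPKM in U87MG-LMO2 (0.49 ± 0.18, edgeR adjusted p = 0.139), and SNAP25, a synaptic protein, had -0.00 ± 0.15 (adjusted p = 0.997). In the list of leukocyte, endothelial and epithelial markers, CSF1R, the receptor of the macrophage growth factor, was called as higher, with 7.46, 7.38 and 6.21 CPM in U87MG-control and 9.88, 13.2 and 13.7 CPM in U87MG-LMO2 (0.81 ± 0.18, edgeR adjusted p = 0.0325), a call lost in 7 of 13 alternatives. In the same list PTPRC, the common leukocyte antigen, had at most 9.98 counts in a library, and CD3E and CDH5 had at most 1. Other members were higher. The endothelial genes PECAM1 and KDR had 51.5 to 80.6 and 55.4 to 90.8 counts, VWF had 6 to 32, and the epithelial gene CDH1 had 27.2 to 48.1. The summed level of that list was 4.55 to 5.02 FPKM in U87MG-control and 5.79 to 6.54 FPKM in U87MG-LMO2, and its part in any result was not tested.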
